A study of Mus musculus with 8 samples.

Results

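The subject is a set of 10 genes for growth factors and cardiokines that the heart secretes: Gdf15, Mstn, Igf1, Fstl1, Fgf16, Nrg1, Vegfa, Vegfb, Angpt1 and Metrnl. They were chosen by gene symbol from a deposited table of 41128 genes, and all 10 were found. Their RNA was compared between left ventricles of 4 Nppb KO mice and 4 wild-type littermates, all of the FVB strain and 8 to 12 weeks old. The knockouts carry a deletion made with CRISPR in exon 2 of Nppb, the gene for the precursor of brain natriuretic peptide. The number of founder animals behind the line was not found in the labels. The labels' breeding protocol also names Myh6-MerCreMer, nTnG and Sun1/sfGFP reporter mice on the FVB/N background and does not say whether any of the 8 animals carried these alleles. The labels number the samples 1 to 4 within each genotype and call them mutants and littermates, so each is read here as 1 animal. Whole ventricular tissue was sequenced, so fewer cells of a type and less RNA per cell cannot be told apart.

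Secreted factors let the cells of the ventricle act on each other. Heart muscle cells release VEGF-A, which drives the growth of capillaries through the receptor KDR on endothelial cells, while VEGF-B binds the related receptor FLT1. Angiopoietin 1 stabilises vessels through the receptor TEK, neuregulin 1 from endothelium acts on ERBB4 and ERBB2 of muscle cells, and IGF-1 acts on growth and survival through IGF1R. Myostatin restrains muscle growth, GDF15 is released by stressed cells, and follistatin-like 1, FGF16 and meteorin-like are made in the heart and have been linked to its growth or its response to injury.

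The genotype labels were borne out at the targeted gene. Nppb measured 4.13, 1.54, 4.09 and 2.25 normalized counts in knockout replicates 1 to 4, against 2713, 1840, 2761 and 4619 in wild-type replicates 1 to 4. A normalized count is the number of reads assigned to a gene, divided by a size factor for the depth of the library. Total gene counts were 23063558 to 33729626 in knockouts and 20284865 to 34742840 in wild types. All 8 heart muscle markers on the list were detected in every sample. The 6 atrial markers summed to 208.5 to 253.4 in knockouts and 214.2 to 245.3 in wild types. Only 3 of them averaged 10 or more, so the sum rests mainly on these and is no measure of atrial tissue. Myl7, an atrial marker below that level, measured 0 to 1.65 in knockouts and 0.76 to 7.58 in wild types. Testing covered 16590 genes whose normalized count averaged 10 or more. Of these, 2 passed a limma adjusted p of 0.05 (0.0121%), namely Nppb and the neighbouring gene Nppa. That count was 6 without wild-type replicate 2, 4 without knockout replicate 4 and 1 without any other single sample. Nppa, higher in knockouts, was not among the calls without any single sample other than wild-type replicate 2, since 0 genes were then called higher in knockouts.

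No growth factor of the set passed the test for a difference between the genotypes, in a comparison where very few genes did. Of the 10 members 8 were abundant enough to be tested, and 0 of these 8 passed in either direction, where 1 of all genes was higher (0.00603%) and 1 lower (0.00603%) in knockouts. Estimates were above 0 for 5 of the 8, against 50.9% of all genes. At an unadjusted limma p of 0.05 there was 1 member, Fstl1, among the 8, against 1039 of all 16590 genes (6.26%). Fstl1 was higher in knockouts, as were 494 of all genes (2.98%), and 0 members were lower, against 545 of all genes (3.29%). The 95% intervals leave room for sizeable differences, down to -48.3% for Gdf15 and up to 46.0% for Igf1. Mstn, fitted without the filter on low values, had a log2 interval of -1.52 to 0.34, and Nrg1 one of -0.81 to 0.75. EdgeR and DESeq2 on whole reads recovered from the table also called 0 members, while DESeq2 called 20 of all genes (0.121%). DESeq2 gave no adjusted p-value to Gdf15, Fgf16 and Metrnl, so it could not call them. The groups overlapped for each of the 10 members, whereas 624 of the 16590 tested genes did not overlap (3.76%). In the authors' deposited table, 4 of the 10 members carry an adjusted p-value, and the lowest is 0.407, for Fstl1. The authors' deposited table lists 29235 genes, of which 5939 carry one and 22 are under 0.05.

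The promoters of 4 members are shown, those of the highest 3 by level and that of Mstn, which is near the floor of detection. Each window runs from 250 bases before to 50 bases after a start of the gene in RefSeq (build GRCm38.p6), on the gene's own strand. Capitals mark a GC box (GGGCGG or its reverse complement) or a TATA box (TATAAA or its reverse complement), and no 2 of these matches overlap, though the longest run of capitals in Vegfb holds 2 GC boxes side by side. Positions are counted back from the start of transcription.
Vegfa, chr17:46032328-46032627, minus strand: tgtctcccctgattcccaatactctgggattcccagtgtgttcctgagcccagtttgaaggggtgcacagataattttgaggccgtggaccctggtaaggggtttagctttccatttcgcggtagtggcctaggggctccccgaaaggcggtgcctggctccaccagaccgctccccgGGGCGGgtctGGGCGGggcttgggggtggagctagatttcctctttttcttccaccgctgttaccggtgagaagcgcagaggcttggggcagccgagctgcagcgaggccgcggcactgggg
Vegfb, chr19:6987602-6987901, minus strand: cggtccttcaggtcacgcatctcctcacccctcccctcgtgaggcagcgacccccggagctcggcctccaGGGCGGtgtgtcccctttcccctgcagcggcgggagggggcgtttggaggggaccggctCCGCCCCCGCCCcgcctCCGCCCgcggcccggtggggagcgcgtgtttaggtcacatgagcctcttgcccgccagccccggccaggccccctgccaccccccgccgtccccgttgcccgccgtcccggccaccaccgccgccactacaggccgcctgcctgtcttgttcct
Fstl1, chr16:37776805-37777104, plus strand: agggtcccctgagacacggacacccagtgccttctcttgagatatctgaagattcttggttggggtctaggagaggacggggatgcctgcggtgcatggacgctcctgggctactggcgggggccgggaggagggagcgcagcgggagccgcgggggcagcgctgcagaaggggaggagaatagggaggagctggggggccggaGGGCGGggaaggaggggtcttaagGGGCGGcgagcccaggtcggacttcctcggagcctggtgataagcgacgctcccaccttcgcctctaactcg
Mstn, chr1:53061390-53061689, plus strand: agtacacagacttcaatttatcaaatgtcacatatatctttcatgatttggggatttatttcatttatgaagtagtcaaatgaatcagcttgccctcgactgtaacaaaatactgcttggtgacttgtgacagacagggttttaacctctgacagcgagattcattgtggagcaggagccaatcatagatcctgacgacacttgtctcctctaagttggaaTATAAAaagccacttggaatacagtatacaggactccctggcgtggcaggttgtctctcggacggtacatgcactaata
The Vegfb window holds 4 GC boxes, and the windows shown of Vegfa and Fstl1 hold 2 each. Another RefSeq start of Vegfa has a window, not shown, with 1 GC box at position -158. The Mstn window holds 0 GC boxes and 1 TATA box, which starts at position -29. A GC box stands in 35.6% and a TATA box in 13.6% of 32817 RefSeq promoter windows of the same length. The share of G and C was 62.0% for Vegfa, 75.3% for Vegfb, 66.7% for Fstl1 and 41.3% for Mstn. RefSeq windows were at hand for 7 of the 10 members. Among those not shown, the Metrnl window holds 5 GC boxes and 0 TATA boxes. The Igf1 window and each Gdf15 window hold 0 GC boxes and 0 TATA boxes. A match to these letters is a description of the sequence and no measure of binding.

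Levels of different genes were set side by side per kb of exon, using the combined length of all annotated exons of a gene in GENCODE M21, whether or not the ventricle uses them. Vegfa was highest, at 1360 ± 218 normalized counts per kb in knockouts and 1452 ± 245 in wild types (SD, n = 4 each). Vegfb came next, at 870.2 ± 76.9 and 901.2 ± 16.6, and Fstl1 after it, at 373 ± 48.6 and 318 ± 26.0 in the same order of genotype. These steps held in all 8 samples, with no overlap of the ranges over samples between one gene and the next. Fgf16, Metrnl and Angpt1 formed a level of their own, with means over the 8 samples of 117.8, 115.1 and 110.5 per kb and overlapping ranges, so that their order among themselves is not resolved. Igf1 and Gdf15 followed at 36.0 and 24.8 per kb, again with overlapping ranges. Mstn at 2.001 and Nrg1 at 0.851 per kb were the lowest and overlapped each other, and Gdf15 averaged 12.4 times the level of Mstn.

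**Figure D1:**
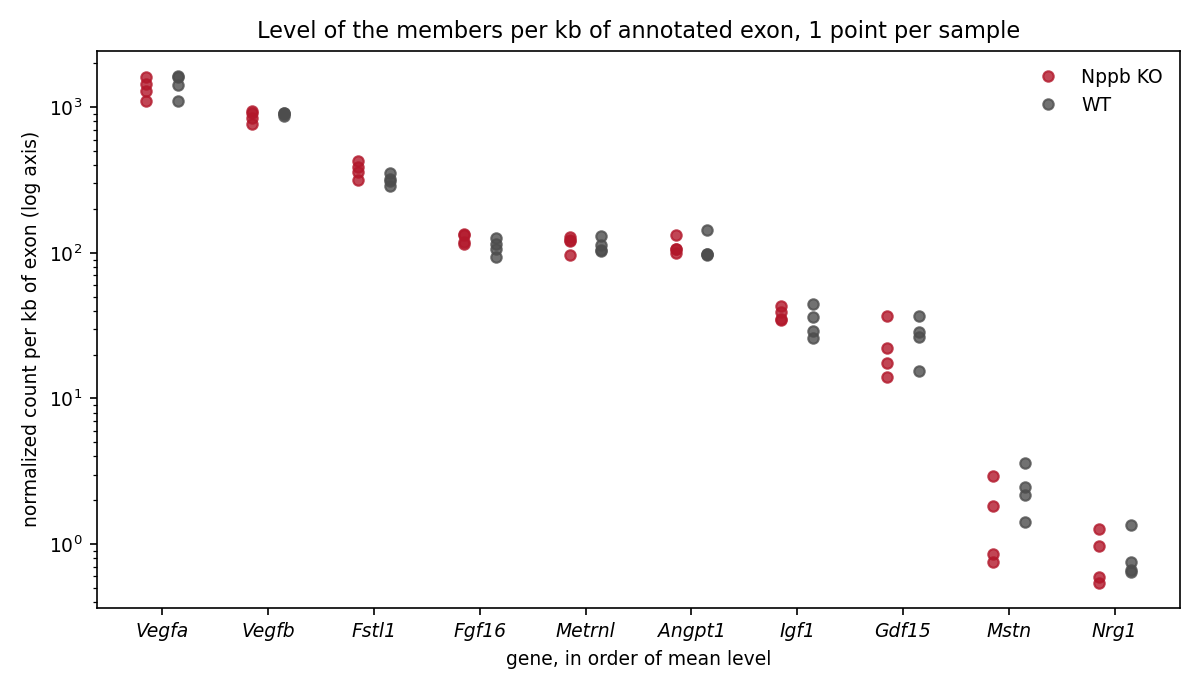
Normalized counts per kb of annotated exon (log axis) of the 10 genes in order of mean level, with 1 point per sample, Nppb KO in red and WT in grey. Vegfa, Vegfb and Fstl1 stand apart in every sample, Fgf16, Metrnl and Angpt1 share a level, and Mstn and Nrg1 lie near the floor.

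**Figure D2:**
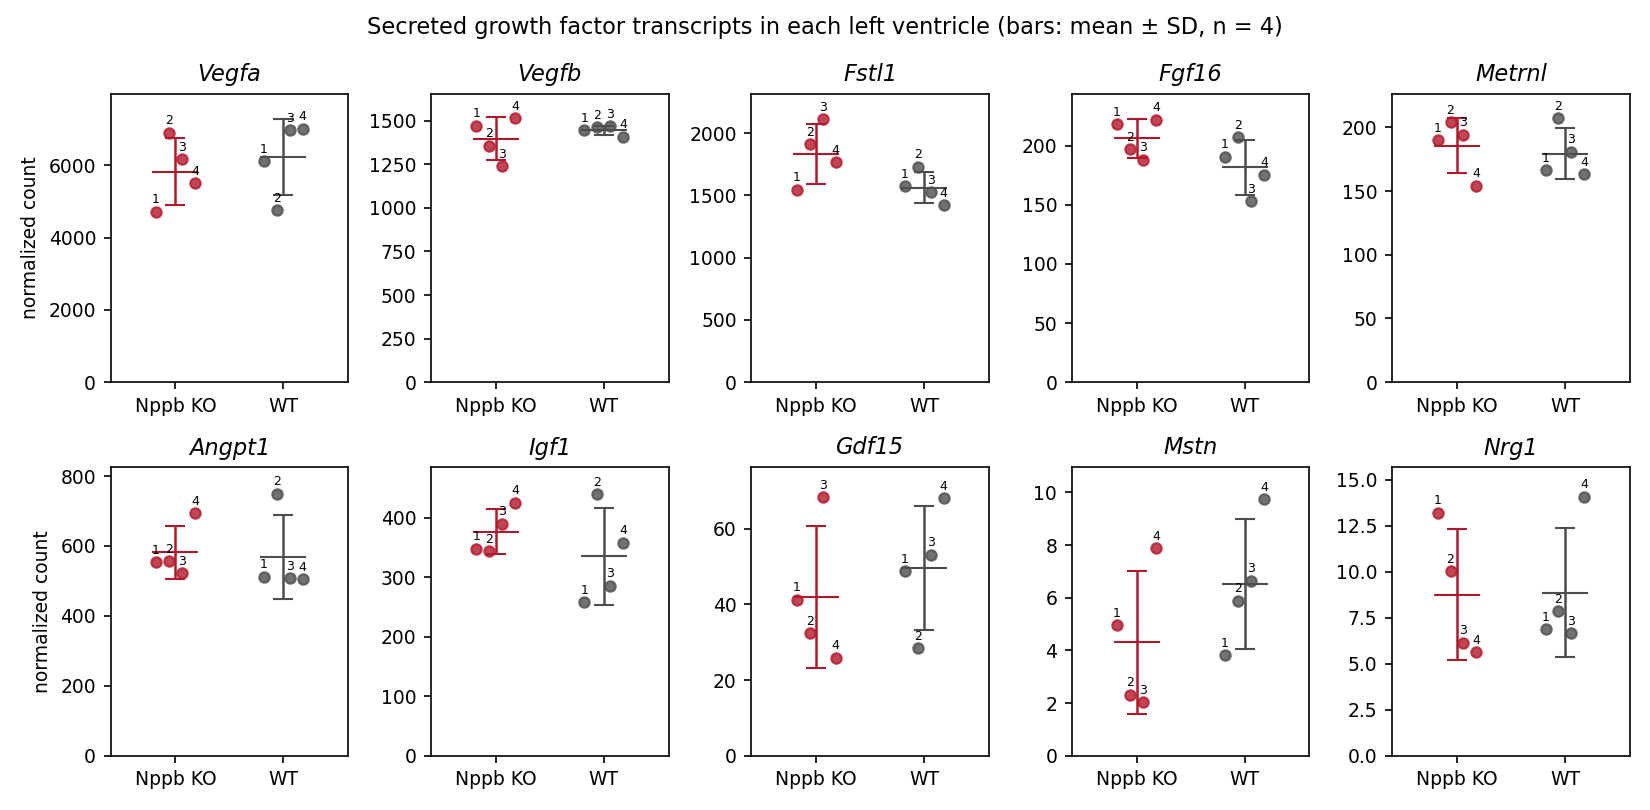
Normalized counts of each gene in the 4 Nppb KO and 4 WT ventricles, with the replicate number above each point and bars for the mean ± SD (n = 4). The genotypes overlap in all 10 panels, and wild-type replicate 2 is the highest wild type for Fstl1, Fgf16, Metrnl, Angpt1 and Igf1 and the lowest for Vegfa and Gdf15.

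Among the factors for blood vessels, Vegfa, on chromosome 17 from 46016993 to 46032369 (mm10), measured 4720, 6908, 6174 and 5505 normalized counts in the knockouts, against 6127, 4770, 6971 and 7020 in the wild types. Knockout replicate 1 and wild-type replicate 2 were the lowest of their groups and nearly equal. The log2 fold change of knockout over wild type was -0.09 (SE 0.17, 95% interval -0.49 to 0.31, limma adjusted p = 0.956), which leaves room for a difference between -28.9% and 23.7%. Without knockout replicate 1 the estimate was 0.0045, and without wild-type replicate 2 it was -0.21.

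Vegfb, on chromosome 19 from 6982473 to 6987651, measured 1473, 1357, 1242 and 1516 in knockouts and 1446, 1463, 1468 and 1409 in wild types. The wild-type ventricles lay close together, with a coefficient of variation of 1.85%, against 8.83% in the knockouts. The wild-type values rest on 1103 to 1896 reads each, and counting alone would usually give a coefficient at least as large as 1.85%. The difference in spread between the genotypes was not tested. The median over the 12874 genes with a mean of at least 50, whatever their level, was 7.29% in wild types and 7.10% in knockouts. Vegfb had the narrowest interval of the tested members, from -11.6% to 4.85%, around an estimate of -0.05 on the log2 scale (SE 0.06, limma adjusted p = 0.908). Without knockout replicate 3 the estimate was 0.00067, and without knockout replicate 4 it was -0.095.

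The balance of both ligands within a library does not depend on how libraries are scaled. The log2 ratio of Vegfb to Vegfa was -1.68, -2.35, -2.31 and -1.86 in knockouts and -2.08, -1.71, -2.25 and -2.32 in wild types, with means of -2.05 ± 0.33 and -2.09 ± 0.27 (SD, n = 4 each). The difference of 0.04 gave an exact two-sided permutation p of 0.914, where 4 samples against 4 can reach 0.0286 at the lowest. Without knockout replicate 1, knockout replicate 4, wild-type replicate 3 or wild-type replicate 4 the difference was below 0, at -0.09, -0.03, -0.02 and -0.04.

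Of the 8 other VEGF ligands and receptors tested, 0 passed in either direction, and 5 estimates were above 0 and 3 below. Kdr, the main receptor for VEGF-A on endothelium, averaged 5627 ± 579 in knockouts and 5512 ± 473 in wild types, and Flt1, the receptor that VEGF-B binds, 3225 ± 284 and 3386 ± 52.4 (SD, n = 4 each). Nrp1, a co-receptor for VEGF-A, measured 5756, 5789, 5676 and 5480 in knockouts and 5075, 5183, 5506 and 4774 in wild types. Its groups overlapped at a single pair, knockout replicate 4 and wild-type replicate 3. Its estimate was 0.15 on the log2 scale (SE 0.05, unadjusted p = 0.00639, limma adjusted p = 0.669). Placental growth factor, Pgf, and Vegfc, a ligand for lymphatic vessels, had estimates of 0.04 (SE 0.14) and 0.13 (SE 0.13).

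Angpt1, on chromosome 15 from 42424723 to 42676977, measured 553.9, 556.7, 522.2 and 693.9 in knockouts, against 511.8, 749.6, 508.3 and 505.7 in wild types. A single ventricle of each genotype was high, knockout replicate 4 and wild-type replicate 2, and the others lay between 505.7 and 556.7. On the log2 scale the difference was 0.04 (SE 0.14, interval -17.6% to 29.2%, limma adjusted p = 0.981). It was 0.18 without wild-type replicate 2, and was below 0 without knockout replicate 4 (-0.043), wild-type replicate 3 (-0.0019) or wild-type replicate 4 (-0.0044).

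Angpt2, which can block the action of angiopoietin 1 on TEK, averaged 120.8 ± 18.7 in knockouts and 133.9 ± 19.2 in wild types (SD, n = 4 each). The log2 ratio of Angpt2 to Angpt1 was -2.30, -2.16, -1.85 and -2.77 in knockouts and -1.91, -2.78, -1.71 and -1.90 in wild types, and the difference of -0.20 gave an exact two-sided permutation p of 0.600. It was -0.03 without knockout replicate 4, -0.07 without wild-type replicate 3, -0.34 without knockout replicate 3 and -0.43 without wild-type replicate 2. The ratio was lowest in the same pair of ventricles in which Angpt1 was high, which follows in part from Angpt1 being its denominator. Tek itself measured 1479 ± 79.5 and 1500 ± 40.9, with an estimate of -0.02 (SE 0.05). Of the 7 tested angiopoietin partners 0 passed, 3 with estimates above 0 and 4 below, and Itga5, an integrin chain, had the smallest p (log2 fold change 0.12, SE 0.07, limma adjusted p = 0.808).

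**Figure D3:**
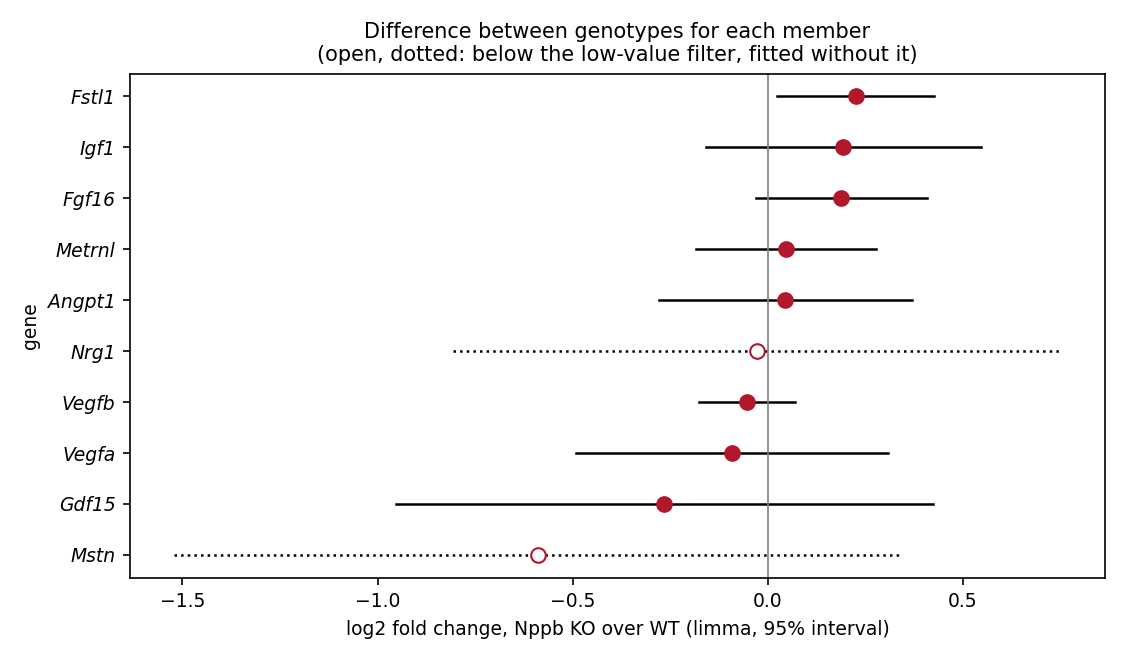
Log2 fold change of Nppb KO over WT with its 95% interval from limma for each gene, where open points and dotted lines mark Nrg1 and Mstn, which were below the low-value filter and were fitted without it. The interval of Fstl1 alone lies above 0, from 0.02 to 0.43 before any adjustment for the number of genes tested, and those of the other 9 genes span 0.

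Fstl1, on chromosome 16 from 37776873 to 37836514, encodes a secreted glycoprotein made by stromal and epicardial cells. It measured 1545, 1911, 2111 and 1765 normalized counts in knockouts, against 1571, 1730, 1526 and 1423 in wild types. Knockout replicates 2, 3 and 4 lay above each of the wild types, and knockout replicate 1 lay among them. On the log2 scale the knockouts were higher by 0.22 (SE 0.09), or 16.8% with a 95% interval from 1.56% to 34.4%, with an unadjusted limma p of 0.0327 and an adjusted p of 0.759. Leaving out single samples moved the estimate between 0.15 (without knockout replicate 3) and 0.30 (without knockout replicate 1, limma adjusted p = 0.277), and over all alternatives the adjusted p ranged from 0.277 to 0.956.

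Markers of stromal cells were read beside Fstl1. All 8 fibroblast markers on the list were tested, 0 passed, and their summed level was 33634 to 39403 in knockouts and 36970 to 40896 in wild types. Of the 6 mesothelial and epicardial markers 4 were tested and 0 passed, with sums of 171.4 to 237.7 in knockouts and 104.98 to 385.5 in wild types. Estimates of these 4 were above 0 for 1, Wt1 (0.20, SE 0.23), and below 0 for 3, with a median of -0.80 and the lowest for Lrrn4 (-1.10, SE 0.54, limma adjusted p = 0.796). The ventricle lowest in Fstl1, wild-type replicate 4, had the highest mesothelial and epicardial sum. The fibroblast sum was lowest in knockout replicate 2 and highest in wild-type replicate 2, while Fstl1 was highest in knockout replicate 3. The part of both marker lists in the Fstl1 values was not tested. Dip2a, a reported cell-surface partner of follistatin-like 1, averaged 404 ± 12.2 in knockouts and 367 ± 38.6 in wild types (SD, n = 4 each; log2 fold change 0.14, SE 0.08, limma adjusted p = 0.803).

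Igf1, on chromosome 10 from 87858265 to 87937042, measured 348.3, 344.4, 390.4 and 425.8 in knockouts, against 257.8, 440.5, 286.1 and 358.4 in wild types. The knockouts lay within the wild-type range, which ran from wild-type replicate 1 to wild-type replicate 2. The log2 fold change was 0.19 (SE 0.16, interval -10.5% to 46.0%, limma adjusted p = 0.865), and it was 0.08 without wild-type replicate 1 and 0.33 without wild-type replicate 2. Cardiac macrophages are a known source of IGF-1, and the 8 macrophage markers had sums of 3844, 3851, 4251 and 4085 in knockouts and 3282, 4355, 3546 and 3531 in wild types. The ventricle lowest in Igf1 and the one highest in Igf1 were also lowest and highest in this sum. All 8 markers had estimates above 0, with a median of 0.15 and 0 past the adjusted threshold, and none was at 0 counts. Lists with a single sign also occurred for other cell types, as all 8 heart muscle and all 6 erythroid markers had estimates below 0. The part of the macrophage markers in the Igf1 values was not tested.

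The IGF list held 18 partner genes, of which 15 were tested, and 0 passed. Estimates were above 0 for 4 and below for 11, with a median log2 fold change of -0.09, against 0.002 over all tested genes. Igf1r, the receptor, averaged 653.2 ± 18.8 in knockouts and 695.6 ± 45.3 in wild types (SD, n = 4 each; -0.09, SE 0.06, limma adjusted p = 0.821). Igfbp3, a binding protein that holds IGF-1 outside cells, measured 235.2, 243.2, 208.5 and 203.9 in knockouts and 299.8, 239.4, 304.7 and 265.3 in wild types. Wild-type replicate 2 alone reached into the knockout range. Its log2 fold change of -0.31 (SE 0.09) had an unadjusted p of 0.00459 and a limma adjusted p of 0.661. Igf2, the fetal IGF, had an estimate of -0.12 (SE 0.12), and Igfbp1 had 0 reads in every sample.

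Fgf16, on the X chromosome from 105764279 to 105774939, is a heart muscle factor of the same FGF subfamily as Fgf9. It measured 217.9, 196.9, 188.03 and 221.9 in knockouts, against 190.7, 207.01, 153.02 and 175.4 in wild types. The lowest knockout lay above the lowest pair of wild types, and wild-type replicates 1 and 2 lay within the knockout range. The log2 fold change was 0.19 (SE 0.10, interval -2.11% to 32.6%, limma adjusted p = 0.808), and it lay between 0.11 (without wild-type replicate 3) and 0.25 (without wild-type replicate 2) when single samples were left out. Per kb, Fgf16 exceeded the ligands Fgf1, at 67.7 in knockouts and 72.0 in wild types, Fgf9, at 34.8 and 35.5, and Fgf18, at 20.8 and 15.1.

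Of the 26 other FGF genes 12 were abundant enough to test and 0 passed, with 5 estimates above 0 and 7 below. Fgfr1, an FGF receptor, averaged 453.3 ± 38.1 in knockouts and 456.1 ± 41.4 in wild types (SD, n = 4 each; -0.01, SE 0.08). Fgf18 had the smallest p of the list, with 20.6, 28.6, 33.7 and 15.8 in knockouts and 19.1, 21.6, 16.0 and 15.2 in wild types (log2 fold change 0.40, SE 0.27, limma adjusted p = 0.825), and its estimate was 0.23 without knockout replicate 3. Fgf21, a metabolic hormone made under stress, had 0 reads over the 4 knockouts and 1 over the 4 wild types.

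Nrg1, on chromosome 8 from 31814551 to 32884029, was one of the pair of members below the filter. In whole reads it had 16, 13, 6 and 5 in knockouts and 9, 8, 5 and 13 in wild types, or 13.2, 10.04, 6.13 and 5.63 normalized counts in knockouts, against 6.86, 7.85, 6.65 and 14.1 in wild types. Its high and low values were mixed over the genotypes. Fitted without the filter, the log2 fold change was -0.03 (SE 0.38, 95% interval -0.81 to 0.75, limma adjusted p = 0.995), so smaller differences were not detectable at this depth. The 6 endocardial markers, of a cell type that makes neuregulin, summed to 1994 to 2444 in knockouts and 2153 to 2487 in wild types. Estimates were above 0 for 2 and below 0 for 4, and 0 passed the adjusted threshold. At an unadjusted limma p of 0.05 there were 2 (33.3%), against 6.26% of all genes. Groups did not overlap for 1 (16.7%), against 3.76% of all genes. The part of these markers in the Nrg1 values was not tested.

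The receptors for neuregulin were far better covered. Erbb4, the receptor that binds it in heart muscle, averaged 681.5 ± 43.0 in knockouts and 735.1 ± 60.6 in wild types, and its partner Erbb2 203.5 ± 15.7 and 215.4 ± 13.7 (SD, n = 4 each). Their estimates were -0.11 (SE 0.07) and -0.08 (SE 0.09), and that of Erbb3 was 0.08 (SE 0.07), none past the limma threshold. Adam17, a protease that sheds ligands of this family, was 1180, 1256, 1263 and 1256 in knockouts and 1128, 1143, 1046 and 1143 in wild types. Those groups did not overlap, with a log2 fold change of 0.15 (SE 0.05, unadjusted p = 0.00686, limma adjusted p = 0.669). Of the 13 tested genes of the list 0 passed, 8 with estimates above 0 and 5 below.

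Mstn, on chromosome 1 from 53061640 to 53068079, was the other member below the filter, with 6, 3, 2 and 7 reads in knockouts and 5, 6, 5 and 9 in wild types. That came to 4.95, 2.32, 2.04 and 7.88 normalized counts in knockouts, against 3.81, 5.89, 6.65 and 9.75 in wild types. Knockout replicates 2 and 3 were the lowest of the 8 samples, and the groups overlapped. Without the filter the log2 fold change was -0.59 (SE 0.45, 95% interval -1.52 to 0.34, limma adjusted p = 0.903).

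Among 17 tested partners of myostatin and the activins 0 passed, 8 with estimates above 0 and 9 below. Acvr2b, the receptor that binds myostatin, averaged 62.4 ± 6.34 in knockouts and 67.1 ± 10.3 in wild types (SD, n = 4 each). Smad2, which carries the signal of this receptor to the nucleus, measured 459.8, 493.4, 458.8 and 458.4 in knockouts and 422.6, 398.3, 429.8 and 364.9 in wild types. All knockouts lay above all wild types, and the log2 fold change was 0.21 (SE 0.07, unadjusted p = 0.00616, limma adjusted p = 0.664). Smad3, which acts beside it, had an estimate of 0.01 (SE 0.10).

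Gdf15, on chromosome 8 from 70629393 to 70632456, measured 41.3, 32.4, 68.5 and 25.9 in knockouts, against 48.8, 28.5, 53.2 and 68.2 in wild types. It was the most variable of the tested members, with a coefficient of variation of 44.6% in knockouts and 33.0% in wild types, and both genotypes covered nearly the same range. Gdf15 also had the fewest reads of the tested members, 23 to 67 per sample, so counting noise weighs more on its spread than on theirs. The log2 fold change was -0.27 (SE 0.31, interval -48.3% to 34.1%, limma adjusted p = 0.924). It was -0.53 without knockout replicate 3, -0.50 without wild-type replicate 2, -0.09 without wild-type replicate 4 and -0.07 without knockout replicate 4.

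The receptor of GDF15 in the brainstem, Gfral, had 15 reads over the 4 ventricles of each genotype. Among the genes of the integrated stress response, a program that induces Gdf15, 0 of 11 tested passed, with 5 above 0 and 6 below. Trib3, a target of that response, had the smallest p, at 41.5 ± 11.1 in knockouts and 51.8 ± 10.6 in wild types (SD, n = 4 each; -0.33, SE 0.22, limma adjusted p = 0.817). Its estimate was -0.15 without knockout replicate 1 and -0.22 without wild-type replicate 4.

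Metrnl, on chromosome 11 from 121701544 to 121716306, measured 189.8, 203.8, 194.2 and 154.3 in knockouts, against 166.3, 207.01, 180.96 and 163.5 in wild types. The highest value was a wild type and the lowest a knockout. Limma gave a log2 fold change of 0.05 (SE 0.11, interval -11.9% to 21.1%, limma adjusted p = 0.969), and it was -0.0011 without knockout replicate 2 and 0.13 without knockout replicate 4. Kit, a receptor for meteorin-like reported in mice, measured 80.9, 152.1, 155.3 and 101.4 in knockouts and 134.2, 135.4, 143.7 and 135.4 in wild types (log2 fold change -0.21, SE 0.18, limma adjusted p = 0.868). The wild types lay close together, and the knockouts lay on both sides of them. Each wild-type value rests on 108 to 176 reads, and counting alone would usually spread such values more widely. Their closeness is thus no measure of a steady level, and the difference in spread was not tested. The Kit estimate was -0.035 without knockout replicate 1, -0.14 without knockout replicate 4, -0.34 without knockout replicate 2 and -0.35 without knockout replicate 3. Metrn, the related neural factor, averaged 8.17 ± 2.98 in knockouts and 12.2 ± 3.06 in wild types (SD, n = 4 each). Of the 7 tested partners of GDF15, the follistatin-like proteins and meteorin-like, 0 passed, 4 with estimates above 0 and 3 below.

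**Figure D4:**
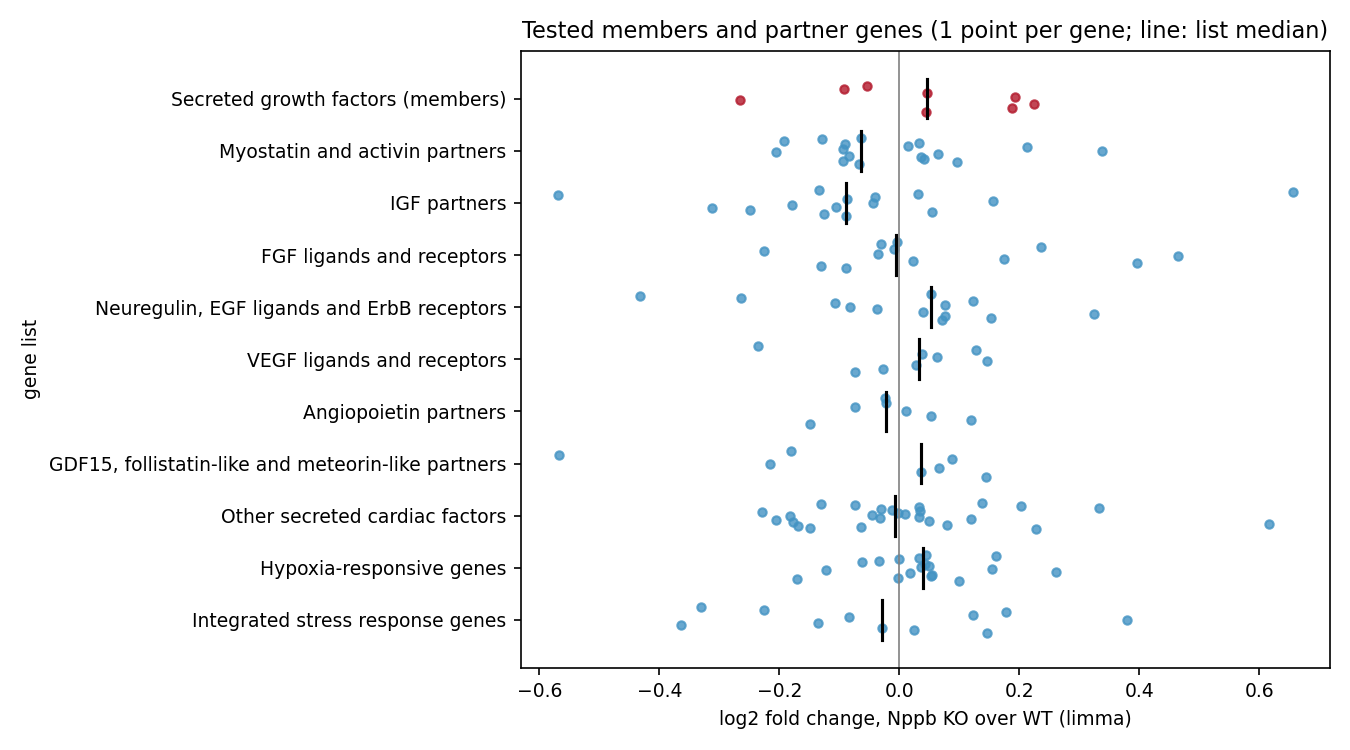
Log2 fold change of Nppb KO over WT for each tested gene of the member list (red) and of 10 partner lists (blue), with a line at the median of each list. The medians lie between -0.09 (IGF partners) and 0.05 (neuregulin, EGF ligands and ErbB receptors, and the members), and 0 of the genes drawn passed the limma test over all genes.

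Over all 10 partner lists, 161 genes were in the table and 133 were tested. In total 65 estimates lay above 0 and 68 below, with a median of -0.002 against 0.002 over all tested genes, and 0 passed. At an unadjusted limma p of 0.05 there were 6 of the 133 (4.51%), close to the 6.26% of all genes, and 4 had groups without overlap (3.01%), against 3.76% of all genes. The 6 were Igfbp3, Smad2, Nrp1, Adam17, Epas1 and Ero1l. The 4 without overlap were Smad2, Adam17, Epas1 and Igfbp4, an IGF binding protein named after its values were seen, at 815.4 to 858.3 in knockouts and 869.3 to 955.1 in wild types. A list of 18 genes concerned low oxygen, the classical inducer of Vegfa. It mixes genes that respond to low oxygen with regulators of that response, namely Hif1a, Epas1, Arnt and Vhl. Epas1, a subunit of the hypoxia-inducible factor, averaged 3089 ± 82.6 in knockouts and 3362 ± 137 in wild types (SD, n = 4 each). Its groups did not overlap (log2 fold change -0.12, SE 0.04, limma adjusted p = 0.726). Of these 18 genes 12 had estimates above 0 and 6 below. Ero1l, an oxidase for protein folding, had an estimate of 0.15 (SE 0.07, limma adjusted p = 0.768). Of 26 other secreted factors tested 0 passed, and Ccn4, a matrix signalling protein listed under its older symbol Wisp1, had the smallest p (0.62, SE 0.32, limma adjusted p = 0.803), with an estimate of 0.34 without knockout replicate 2 and 0.37 without wild-type replicate 3.

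The gene nearest to each member in its pattern over the 8 samples was taken as the one with the smallest root mean square difference of centred log2 values, among 10916 named genes with a mean of at least 50. For Igf1 it was Cd163, a gene of the macrophage list, at 0.09, against a median of 0.27 over all candidates. Vegfa was nearest to Rin3 (0.06, median 0.24), Angpt1 to Gmnn (0.07, median 0.23) and Fstl1 to Cyfip2 (0.07, median 0.20). Fgf16 was nearest to Lmf1 (0.05, median 0.19), Metrnl to Lamtor4 (0.06, median 0.18) and Vegfb to Kcnj3 (0.03, median 0.14). These pairs are a description, taken as the closest of many candidates over only 8 samples.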

How the data were processed

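Total RNA of 8 left ventricles was sequenced. The labels' protocols give 900 ng of RNA, a stranded total RNA kit and 125 bp paired-end reads. The tools STAR and DESeq2 and the build mm10 come from the submitters' processing notes, without versions; which counter and annotation were used, and whether strand was, is not stated there. The authors deposited a signal, the normalized count of each gene. Every value (100%) was a whole multiple of 1 read within 0.01 reads, which returned the reads and the size factors. Their deposited comparison table gives log2 fold changes, with wild type on top, and p-values.

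Tests used limma 3.58.1 (trend, robust) under R 4.3.3, on log2 of the normalized count plus 1, where the gene's mean reached 10. Benjamini-Hochberg adjustment ran over all 16590 genes. The added 1 understates fold changes of low genes. Intervals are 95% for 1 gene at a time. Ratios had exact permutation tests over 70 assignments. Alternatives were other pseudocounts, filters, scalings, weights, a replicate block, each sample left out, and edgeR 4.0.16 and DESeq2 1.42.0 on the recovered reads. Positions come from GENCODE M21 (mm10). Members and lists were chosen with earlier results of these data known. The rule for names took all members, Nppb and Nppa, 11 receptors, each list's genes at an unadjusted p under 0.05 (up to 4, or else the smallest p) and each member's nearest profile; further genes were picked knowing their values. Depth was 20284865 to 34742840 counts per sample. A p-value here reflects only how these 8 samples vary.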

Additional observations from a re-analysis of the deposited data

Results flagged for a closer look

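Among 68 groups of 4 samples of the named genes, 9 held a sample far from the other 3, judged by how much of the group's range separates it from its neighbour. About 1 in 20 groups would be picked by chance. Wild-type replicate 2 stood apart for Angpt1 (749.6, others 505.7 to 511.8), Igf1r (627.9, others 712.5 to 721.2) and Nppa (627.9, others 327.3 to 377.9). Wild-type replicate 4 was highest for Nrg1 (14.1, others 6.65 to 7.85). Wild-type replicate 3 was highest for Kit (143.7, others 134.2 to 135.4). It was lowest for Adam17 (1046, others 1128 to 1143) and Ccn4 (21.3, others 41.2 to 44.4). The number of reads did not enter this choice. The value that stood apart rests on 13 reads for Nrg1, 16 for Ccn4 and 108 for Kit. Whether these gaps exceed counting noise was not tested. Knockout replicate 2 was highest for Smad2 (493.4, others 458.4 to 459.8), and knockout replicate 1 was lowest for Adam17 (1180, others 1256 to 1263). Over all 16590 tested genes the sample in this position most often was wild-type replicate 2, for 311 genes (1.87%), against 152 to 265 genes for the other samples.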

How the results depend on the processing

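The count of members called was 0 in all 19 alternatives, and so was the count of partner genes called. Not every alternative could call every gene. The filter at a mean of 50 left out Gdf15, Fgf18, Ccn4 and Trib3, among others. DESeq2 gave no adjusted p-value to some partner genes, among them Acvr2b, Erbb2, Kit, Fgf18, Ccn4 and Trib3. Mstn and Nrg1 entered only the fit without the filter on low values. The count of all genes called was 2 in the main test, 5 with no filter on low values, 4 with sample weights, 20 with DESeq2 on recovered reads, 3 with the replicate block (0 of them higher in knockouts, so Nppa was not called), and 1 to 6 when each sample was left out in turn. Leaving out 1 sample turned the sign of small estimates: Vegfa ranged from -0.21 to 0.0045, Vegfb from -0.095 to 0.00067, Angpt1 from -0.043 to 0.18, Metrnl from -0.0011 to 0.13, Fgfr1 from -0.051 to 0.052, Kdr from -0.020 to 0.091, Tek from -0.052 to 0.010 and the log2 ratio of Vegfb to Vegfa from -0.086 to 0.165. The sign turned for Fgfr1 without knockout replicate 1, wild-type replicate 1 or wild-type replicate 4, for Kdr without knockout replicate 2, knockout replicate 3 or wild-type replicate 3, and for Tek without knockout replicate 4; the samples for the other genes stand beside their values above. Other estimates kept their sign but moved by over 1.5 times, among them Itga5 to 0.07 without knockout replicate 4, Dip2a to 0.08 without wild-type replicate 3, Acvr2b to -0.21 without wild-type replicate 2, Igf1r to -0.14 without wild-type replicate 2, Erbb2 to -0.04 without knockout replicate 3, Erbb3 to 0.02 without wild-type replicate 3, Erbb4 to -0.06 without wild-type replicate 1 and Flt1 to -0.13 without knockout replicate 4. The cause was not tested. No scaling alternative turned a sign. Same-numbered samples of both genotypes did not deviate together (correlations -0.07 to 0.03), where differently numbered samples gave -0.21 to 0.16. The labels do not say whether the numbers pair animals, and a check over 4 samples per genotype cannot settle it. The replicate block changed no call of a member or a partner gene. Depth limits Mstn and Nrg1, which had 18 and 40 reads over the knockouts and 25 and 35 over the wild types.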
